A study of Mus musculus with 2 samples.

Results

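The genes described here had at least 100 counts in sham replicate 1 and a level there at least 8 times that in sham replicate 2. The level is CPM, the count divided by all counts on genes in that library and multiplied by 1000000, with a count of 0 set to 3. Genes on chromosomes X, Y and MT and Jund were left out. Of 53801 genes listed, 9577 had the 100 counts in replicate 1 and could be chosen (candidates), and 124 of these were chosen (members), which is 1.29% of the candidates. The members were chosen by the ratio of CPM between the replicates, so the levels and ratios below describe the choice and were not tested.

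Both libraries were made from microglia sorted 3 days after sham surgery from the brains of Cx3cr1(CreER/wt) mice on the C57BL/6 background, given tamoxifen at 75 mg/kg for 4 days. These mice carry a tamoxifen-inducible Cre recombinase knocked into the Cx3cr1 gene, which leaves 1 intact Cx3cr1 allele, and they served as wild-type (WT) controls with no floxed allele. The labels describe male mice of 8 to 10 weeks, which differs from the age and sex given in the study's methods, and they list no treatment although each title names sham. The gate was CD11c–Ly6G–CD11b+CD45low. The libraries of the stroke arm were not analysed here, so there is 1 group of 2 libraries and no comparison between conditions. The study describes the samples of a group as biological replicates, and animal, sort and library preparation cannot be told apart in their difference.

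Microglia are the resident macrophages of the brain parenchyma. They are known by genes such as Tmem119 and P2ry12, while border-associated macrophages of the meninges and vessels carry Mrc1 and Cd163, and neutrophils carry S100a8 and Ngp. The RNA was copied with the SMART-Seq HT kit, in which reverse transcription starts from the poly(A) tail, the cDNA is amplified by PCR, and the product is cut and tagged by a transposase. What a library shows of a gene therefore passes through copying and amplification of the whole transcript, and base composition (GC content, the share of G and C) and length are the usual properties by which transcripts differ in these steps.

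Replicate 1 held 23381026 counts and replicate 2 held 41142609, so that 3 counts are worth 0.128 CPM and 0.0729 CPM. The microglia list of 12 genes summed to 55411 CPM in replicate 1 and 52104 CPM in replicate 2, with Tmem119 at 7057 CPM and 6229 CPM and P2ry12 at 4575 CPM and 7450 CPM. The immature and mature neutrophil lists went the other way, from 1699 CPM to 31527 CPM and from 3010 CPM to 31323 CPM. The share of counts on the mitochondrial genome was 0.766% in replicate 1 and 0.391% in replicate 2. The candidates as a whole had a median log2 ratio (replicate 1 over replicate 2) of 0.27 with an SD of 1.01 over genes, and 765 of them were at least 4-fold lower in replicate 2 against 87 at least 4-fold higher.

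The coding sequence of the members with the largest ratios, set beside that of a related gene with a smaller ratio, shows the base composition on which the comparison below turns. For the 5 members of largest ratio that have a related candidate gene, the 100 bases of highest GC content within a single coding exon were taken from GENCODE M21 on GRCm38, from the transcript with the longest coding sequence, and the related gene is the one with the smallest ratio. They are printed 5′ to 3′ in the direction of the gene, with each CG dinucleotide in capitals.

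Mfsd4a, a membrane protein of the major facilitator superfamily, had the largest ratio. The window of Mfsd4a lies at chr1:132067676-132067775, minus strand, exon 1 of 10, and that of Mfsd4b4 at chr10:39892824-39892923, minus strand, exon 4 of 4.
Mfsd4a: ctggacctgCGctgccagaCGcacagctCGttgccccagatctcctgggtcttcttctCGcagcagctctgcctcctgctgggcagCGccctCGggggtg
Mfsd4b4: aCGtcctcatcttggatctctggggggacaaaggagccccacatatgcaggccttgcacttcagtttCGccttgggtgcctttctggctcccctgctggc
The window of Mfsd4a held 68% GC with 6 CG dinucleotides, and that of Mfsd4b4 59% with 2.

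Ano8 and Ano10 belong to the anoctamins, a family of membrane proteins with ion channels and lipid scramblases. Their windows lie at chr8:71476410-71476509, minus strand, exon 18 of 18, and at chr9:122261336-122261435, minus strand, exon 6 of 13.
Ano8: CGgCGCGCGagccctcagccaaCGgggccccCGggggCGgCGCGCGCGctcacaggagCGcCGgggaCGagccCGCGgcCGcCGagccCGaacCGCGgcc
Ano10: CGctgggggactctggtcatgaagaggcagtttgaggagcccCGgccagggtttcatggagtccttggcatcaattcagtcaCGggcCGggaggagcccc
Ano8 held 86% GC and 21 CG dinucleotides against 63% and 4 in Ano10.

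Dapk3 and Dapk1 encode death-associated protein kinases. The window of Dapk3 is in its last exon, at chr10:81192593-81192692, plus strand, exon 9 of 9, and that of Dapk1 lies at chr13:60761053-60761152, plus strand, exon 26 of 27.
Dapk3: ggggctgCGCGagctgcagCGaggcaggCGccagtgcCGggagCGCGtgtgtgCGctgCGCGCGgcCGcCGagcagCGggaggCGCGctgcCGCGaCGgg
Dapk1: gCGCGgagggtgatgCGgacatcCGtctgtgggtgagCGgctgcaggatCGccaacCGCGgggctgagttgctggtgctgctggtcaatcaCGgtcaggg
Dapk3 held 82% GC with 19 CG dinucleotides and Dapk1 67% with 9.

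Sema6c and Sema6d encode transmembrane semaphorins, which guide axons and cell movement. Their windows lie at chr3:95172676-95172775, plus strand, exon 21 of 21, and at chr2:124664352-124664451, plus strand, exon 19 of 19.
Sema6c: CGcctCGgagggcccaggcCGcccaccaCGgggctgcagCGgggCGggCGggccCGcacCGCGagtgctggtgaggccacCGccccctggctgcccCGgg
Sema6d: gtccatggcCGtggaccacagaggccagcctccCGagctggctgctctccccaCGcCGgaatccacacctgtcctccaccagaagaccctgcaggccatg
The GC content was 84% in Sema6c and 67% in Sema6d, with 12 and 4 CG dinucleotides.

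Arf6 and Arf1 encode small GTPases, Arf6 acting at the plasma membrane and Arf1 at the Golgi. Their windows lie at chr12:69373003-69373102, plus strand, exon 2 of 2, and at chr11:59212584-59212683, minus strand, exon 5 of 5.
Arf6: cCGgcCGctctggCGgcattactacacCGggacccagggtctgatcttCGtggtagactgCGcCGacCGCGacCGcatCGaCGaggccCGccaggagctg
Arf1: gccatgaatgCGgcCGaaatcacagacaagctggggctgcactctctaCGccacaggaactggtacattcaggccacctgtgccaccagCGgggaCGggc
Here the windows were closer, at 69% in Arf6 and 62% in Arf1, but Arf6 held 13 CG dinucleotides and Arf1 5.

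Rac1 and Rac2, the small GTPases that drive actin assembly in phagocytes, were added because Rac1 has the largest ratio among members with a lower GC content than that related gene. Their windows lie at chr5:143507343-143507442, minus strand, exon 6 of 7, and at chr15:78561913-78562012, minus strand, exon 6 of 7.
Rac1: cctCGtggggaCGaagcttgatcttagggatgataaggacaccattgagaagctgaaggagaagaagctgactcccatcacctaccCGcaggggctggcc
Rac2: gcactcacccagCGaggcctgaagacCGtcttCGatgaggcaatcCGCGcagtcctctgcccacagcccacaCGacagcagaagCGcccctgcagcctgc
The order is turned in this pair, with 56% GC and 3 CG dinucleotides in Rac1 and 66% and 7 in Rac2. Over the whole transcript Rac1 held 48.3% GC and Rac2 52.8%, but the 5′ UTR of Rac1 held 78.6% GC. The richest window of 100 transcript bases held 87% in Rac1 and 67% in Rac2. Taken over each gene's longest transcript, this window did not favor the member in every pair. It held 79% in Mfsd4a and 82% in Mfsd4b4, and 83% in Arf6 and 84% in Arf1. The longest transcript of Ano8 has no annotated coding sequence and does not hold the coding window of 86% shown above. Its richest window, of 76% against 79% in Ano10, therefore does not describe the coding transcript of Ano8. In Dapk3 and Dapk1 it held 82% and 81%, and in Sema6c and Sema6d 84% and 81%.

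Of the members, 3 are annotated as miRNA genes, and they are the only 3 candidates so annotated. Gm23935 (chr16:11144125-11144181, plus strand) and Gm24270 (chr9:56223715-56223771, minus strand) have the same 57 bases, as has Gm24245 on chromosome 4, and the sources used here do not say how reads were divided among the copies, so the values of these rows are uncertain. Their shared sequence has 73.7% GC, the highest of all members, and is shown for that with CG dinucleotides in capitals. Mir6236 lies at chr9:110281287-110281409 on the plus strand, and its mature miRNA, from RefSeq on GRCm38 at chr9:110281353-110281371, is shown with its seed, bases 2 to 8, in capitals.
Gm23935, Gm24270: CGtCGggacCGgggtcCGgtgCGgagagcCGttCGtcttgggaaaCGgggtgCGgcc
mmu-miR-6236: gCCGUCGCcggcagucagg
The kit copies polyadenylated RNA and is not made for mature miRNAs, so these rows count reads over the genes and not the miRNAs. The reads were 75 bases long, more than the 57 bases of Gm23935 and Gm24270. The length and GC content of these 2 rows may therefore not describe the RNA that was counted.

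Over all 124 members, the counts ran from 100 to 26410 in replicate 1, with a median of 944, and from 6 to 4383 in replicate 2, with a median of 161. No member was at 0 in replicate 2. The median log2 ratio was 3.35, a 10.2-fold difference, and the ratios ran from 3.00 to 6.18. All members were therefore still counted in replicate 2, and 58 of them lay between 8-fold and 10-fold while 18 were at least 16-fold lower. Their summed level was 9261 CPM in replicate 1 and 844 CPM in replicate 2 (mean 5053 ± 5952 SD, n = 2). The exact 95% counting interval of the fold lay above 8 for 73 members and held 8 for the other 51, and these intervals cover counting error only, not the spread between animals.

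**Figure D1:**
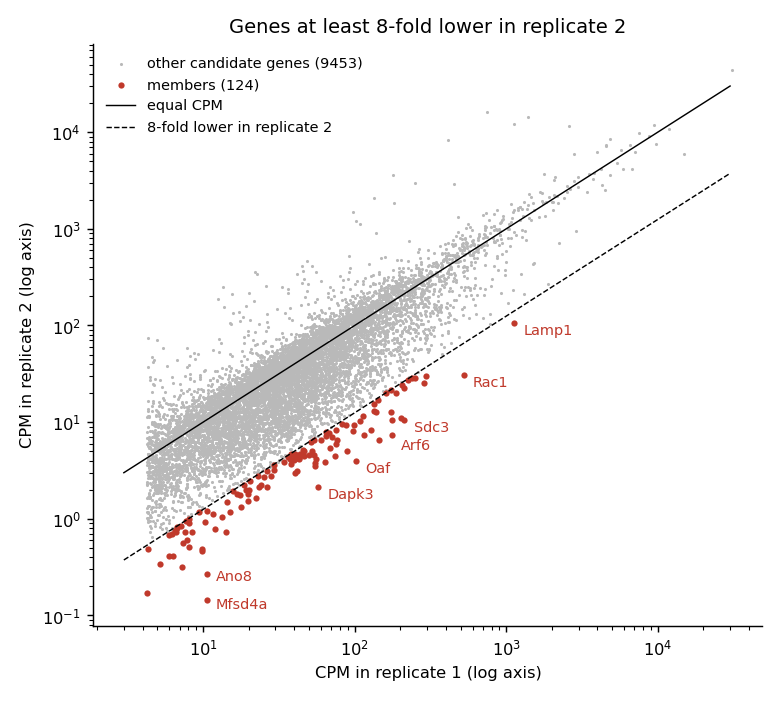
Level in CPM in sham replicate 1 (horizontal) and sham replicate 2 (vertical), on log axes, for the 124 members (red points) and the other candidate genes (grey points), with lines at equal level and at 8-fold lower in replicate 2. The members form the lower edge of a cloud that widens below the line of equal level, and Mfsd4a and Ano8 lie farthest from it.

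The plot of both levels shows that the members sit on the lower edge of a continuous cloud of genes rather than apart from it. The members just inside the threshold were Arhgap35 (682 and 150 counts), Map7d1 (3773 and 828 counts) and Jak3 (4063 and 890 counts), with log2 ratios of 3.000, 3.003 and 3.006. Just outside it were Kifc3 (145 and 32 counts), Fbxl14 (729 and 161 counts) and Bod1 (674 and 149 counts), at 2.995, 2.994 and 2.993. Level did not set the members apart, since their median in replicate 1 was 40.4 CPM and that of all candidates 35.3 CPM.

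The 10 largest ratios belonged to genes of several kinds. Mfsd4a (chr1:132022806-132068062) had 247 counts in replicate 1 and 6 in replicate 2, or 10.6 CPM and 0.146 CPM, a 72.4-fold difference with a counting interval of 32.8 to 199. Ano8 (chr8:71476019-71485963) had the same 247 counts in replicate 1 and 11 in replicate 2, 39.5-fold lower with an interval of 21.7 to 80.2. Both rest on few counts in replicate 2, as do Sema6c (100 and 7 counts, 25.1-fold), Smad6 (169 and 13 counts, 22.9-fold), an inhibitor of BMP signaling, and Gm24270 (229 and 19 counts, 21.2-fold). The rest of the 10 were well counted in both libraries. Dapk3 (chr10:81183005-81193197) had 1346 counts and 88 counts, or 57.6 CPM and 2.14 CPM, and Oaf had 2390 counts and 162 counts, or 102 CPM and 3.94 CPM. Arf6 (chr12:69372150-69373783) was at 176 CPM and 7.44 CPM (4112 and 306 counts). Slc7a5, the light chain of the LAT1 transporter of large neutral amino acids, had 3361 counts and 269 counts, and Sdc3, the heparan sulfate proteoglycan syndecan 3, had 4981 counts and 430 counts. For these 5 genes the counting intervals of the fold lay between 18.5 and 33.8.

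The 10 members with the highest level in replicate 1 lay between 205 CPM and 1130 CPM there and between 10.5 CPM and 107 CPM in replicate 2. Lamp1 (chr8:13159161-13175338), a major protein of the lysosomal membrane, was at 1130 CPM and 107 CPM from 26410 counts and 4383 counts. Rac1 (chr5:143503634-143528036) was at 525 CPM and 31.1 CPM, from 12270 counts and 1278 counts, the larger fold of the pair at 16.9 against 10.6. Ppp2ca, the catalytic subunit of protein phosphatase 2A, had 295 CPM and 30.2 CPM. Fscn1, the actin-bundling protein fascin, had 285 CPM and 25.7 CPM. The others were Soga1 (250 CPM and 28.3 CPM), the receptor tyrosine phosphatase gene Ptpra (239 CPM and 28.7 CPM), Ddb1 of the CUL4 ubiquitin ligase (224 CPM and 27.5 CPM), Sdc3 (213 CPM and 10.5 CPM), Atp2a2, the calcium pump of the endoplasmic reticulum (210 CPM and 22.6 CPM), and Dgkz, a diacylglycerol kinase (205 CPM and 24.3 CPM). The exact counting interval of the fold of Lamp1 was 10.3 to 10.9.

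By role, 94 of the members could be put into 10 groups, and 30 could not. The grouping was made after the members were seen and serves only to describe them. The largest groups were kinases and phosphatases with 14 members and surface, matrix and complement genes with 14, followed by RNA processing and ribosome assembly with 12. Transcription factors and corepressors, and transporters and channels, had 11 members each. Within the kinases and phosphatases stood Dapk3, Gsk3a (229 and 20 counts), a kinase of glycogen and Wnt signaling, Prkaca (976 and 129 counts), the catalytic subunit of protein kinase A, Mapkapk2 (4114 and 437 counts), a target of p38, and Jak3, which signals from receptors with the common gamma chain. Median log2 ratios of the groups ran from 3.05 in the ubiquitin system to 3.75 in transcription factors and corepressors, a narrow band that the threshold sets from below.

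Of the 232 candidates in 13 function lists, 9 were members (3.88%, beside 1.29% of all candidates), spread over 6 lists. Cebpa, a factor of myeloid development (67.4 CPM and 7.80 CPM), Klf16 (7.78 CPM and 0.608 CPM) and Sox4 (88.4 CPM and 5.01 CPM) came from the list of 19 candidate CEBP, KLF and related short-gene factors. Sema4c (46.4 CPM and 4.42 CPM) and Sema6b (6.20 CPM and 0.705 CPM) came from the plexins and semaphorins. The remaining lists gave 1 member each, among them the receptor gene Notch4 (23.2 CPM and 2.77 CPM), Plekhg5 (15.9 CPM and 1.94 CPM) and the lipid transporter gene Abca3 (65.1 CPM and 7.97 CPM). No member was among 20 histone lysine methyltransferases and demethylases, 19 chromatin remodellers, 21 giant cytoskeletal proteins or 9 kinesins, although the median log2 ratios of these 4 lists were 1.41, 1.34, 1.46 and 1.36, all above the 0.27 of all candidates. Lists of short, abundant transcripts held no member either: the median log2 ratio was 0.44 for 28 cytosolic ribosomal proteins, -0.29 for 24 nuclear oxidative phosphorylation subunits and -0.30 for 23 proteasome subunits. The lists were written with results of these data known, so their counts are a description.

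Base composition set the members apart from the candidates. The members' transcripts had a median GC content of 57.2% (quartiles 52.3% and 59.8%) against 49.4% (44.7% and 54.1%) over the 9576 candidates with an annotated transcript, and 105 of the 124 members lay above the candidates' median. Taking every pair of a member and another candidate, the member had the higher GC content in 78.5%. Of the candidates in the lowest of 10 equal GC bins 0.313% were members (3 of 958), and in the highest GC bin 5.95% (57 of 958), with exact counting intervals of 0.0646% to 0.912% and 4.54% to 7.64%. The 2 highest bins together held 79 of the members. Zfpm1, the cofactor FOG1 of GATA factors, had the highest GC content of a protein-coding member at 66.8%, with 282 counts and 32 counts. At the other end stood Tmem243 at 37.7% (1269 and 272 counts), the transferrin receptor gene Tfrc at 39.8% (682 and 131 counts) and the small GTPase gene Arl5a at 40.3% (924 and 190 counts).

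The excess ran along the whole transcript and was larger near the start. Coding sequences of members had a median of 58.7% GC against 52.6%, 5′ UTRs 73.2% against 64.9%, and 3′ UTRs 50.8% against 44.7%. The first 500 transcript bases held 64.4% against 57.6% and the last 500 held 49.9% against 43.8%. Members thus kept a difference of 6.10 points at the end from which the cDNA is primed. Over all candidates, however, Spearman's rank correlation with the log2 ratio was 0.03 for the last 500 bases and 0.29 for the first 500. The richest window of 100 bases held a median of 83% GC in members and 73% in candidates, and windows of over 70% GC made up 4.81% of a member's windows against 0.491% of a candidate's. Members held 34.5 CG dinucleotides per 1000 bases and candidates 23.7. Of the 19 members below the candidates' median GC content, 13 still had a window over 70% GC, as had 48.9% of all candidates below that median. Rac1, Ppp2ca, Atp2a2 and Arl5a were among them, with richest windows of 87%, 84%, 87% and 87%, while Tmem243 reached 61%. The GC content and window of Tmem243 come from its longest transcript, which has 1 exon and no annotated coding sequence. In its coding transcript the 5′ UTR held 78.5% GC.

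Length set the members apart less, and not in a straight line. Their median transcript was 4125 bases long (quartiles 3034 and 5010) against 3416 bases (2230 and 4822), and the member was the longer in 58.7% of pairs. Coding length differed more, with 2301 bases against 1389, while the 3′ UTR was alike at 948 bases and 975 bases and so was the gene span at 23576 bases and 23412 bases. The share of candidates that were members was 0.522% in the shortest of 10 equal length bins, 2.51% in bin 8 and 0.835% in the longest, bin 10. The median log2 ratio of all candidates nonetheless climbed with length from -0.21 in the shortest bin to 1.13 in the longest. Among the longest members were Arhgap35 at 9147 bases and the mechanosensitive channel gene Piezo1 at 8219 (1061 and 210 counts). The shortest were the 57-base Gm23935 and Gm24270 and Mir6236 at 123 bases (1260 and 187 counts). Among the 18 members at least 16-fold lower the median length was 3130 bases, below that of the candidates. These 18 include Gm23935 and Gm24270, whose 57 annotated bases may not be the length of the RNA counted. That the median was below that of the candidates is therefore uncertain.

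**Figure D2:**
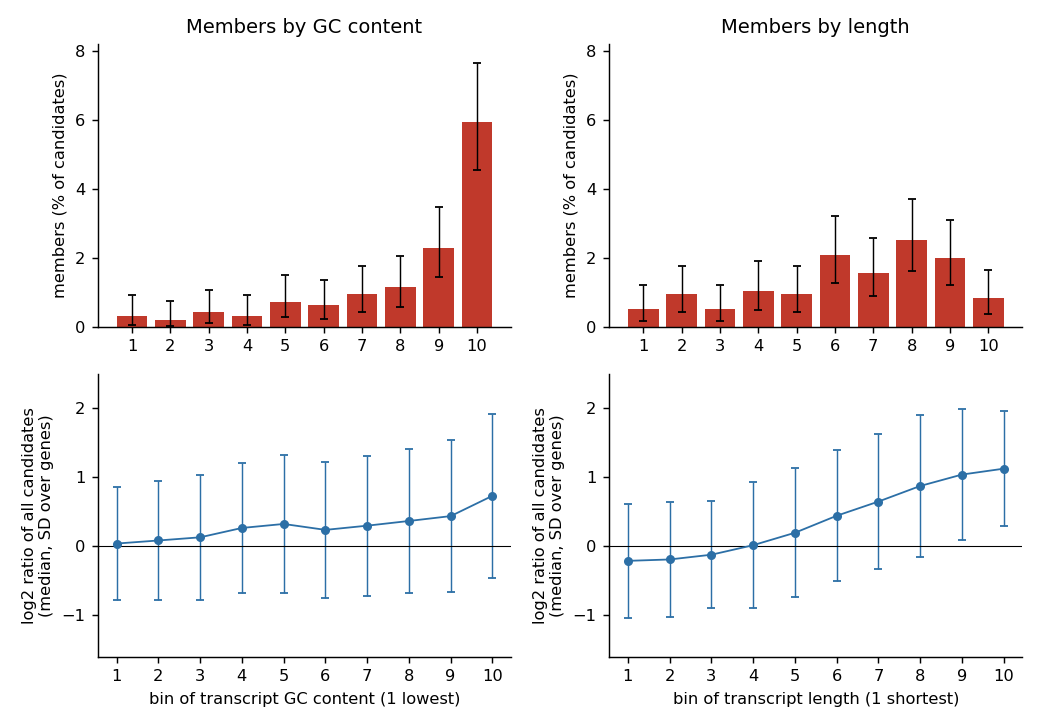
Upper panels show the share of candidates that were members, in percent, in each of 10 equal bins of transcript GC content (left) and length (right), as bars from 0 with exact 95% counting intervals. Lower panels show the median log2 ratio of all candidates in the same bins, with the SD over genes as bars. The share of members climbs to 5.95% in the highest GC bin and peaks at 2.51% in length bin 8.

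The plot by bins shows a difference between the typical gene and the extreme ones. Across all candidates the log2 ratio followed length (Spearman's rank correlation 0.49) more than GC content (0.19), whereas membership followed GC content more than length. These correlations are across 9576 genes of the same 2 libraries and are descriptions. Both properties together narrowed the members further. Of the shorter candidates (at or below the median length) in the 5 lowest GC bins, 2 of 1935 were members (0.103%), and of the longer candidates in the highest GC bin 33 of 300 (11.0%). The median log2 ratio was -0.23 in the former and 1.75 in the latter, and 10 of the 300 were higher in replicate 2. Most of these long, GC-rich candidates were still not members.

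Taking off what genes of like GC content and length did left a remainder for almost every member. From each log2 ratio the median of the candidates in the same of 10 GC bins and 10 length bins was subtracted, and the result is called the adjusted log2 ratio. The median amount taken off a member was 1.17, and the members' median log2 ratio went from 3.35 to 2.31 (quartiles 1.75 and 3.11, range 0.86 to 5.94). The bin medians also hold the shift shared by all candidates, whose median log2 ratio was 0.27. The amount taken off is therefore not due to GC content and length alone. Of the 124 members 33 stayed at or above 3, where 36 of all 9576 candidates lay (0.376%). An adjusted ratio of at least 1 was left in 121 members. The bins took 32.4% of the variance of the log2 ratio over candidates, against 4.37% for GC bins alone and 19.9% for length bins alone. The members come from the top of this same ratio, so a remainder above 0 follows from the choice and its size is a description.

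The largest adjusted log2 ratios belonged to Mfsd4a (5.94), Dapk3 (4.66), Oaf and Arf6 (4.47 each) and Gm24270 (4.45), all of short or moderate length at 3288, 1730, 2526, 1534 and 57 bases. The 57 bases of Gm24270 are its annotated length and may not be that of the RNA counted, so its adjusted ratio is uncertain. The members of highest level, Lamp1 and Rac1, had adjusted log2 ratios of 3.49 and 3.17. The smallest remainders were in long GC-rich transcripts. Soga1, of 7864 bases and 60.3% GC, went from 3.14 to 0.86 and Piezo1 from 3.15 to 0.88. The ratio of such long, GC-rich members was nearer to that of genes like them than the ratio of shorter members such as Dapk3 and Arf6.

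**Figure D3:**
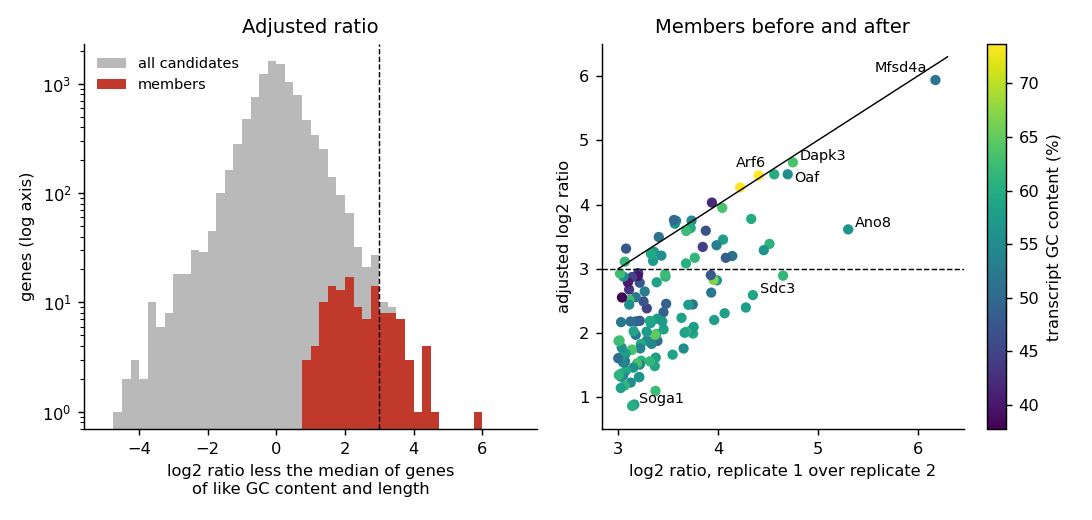
Left, number of genes (log axis) by adjusted log2 ratio for all candidates (grey) and members (red), with a dashed line at 3. Right, adjusted against unadjusted log2 ratio of each member, colored by transcript GC content in percent, with a line of equal values. Of the members, 33 lie at or above 3 after adjustment, with Mfsd4a highest at 5.94 and Soga1 lowest at 0.86.

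The plot of ratios before and after adjustment also shows that GC content does not order the members among themselves, and Spearman's rank correlation of GC content with the log2 ratio within the 124 members was 0.10. With length it was -0.25. The range of ratios is cut at 3 by the rule, and these values are across genes.

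Of 64 candidates in 19 marker lists, 1 was a member (1.56%, beside 1.29% of all candidates), so the share of markers rests on 1 gene. The 64 include 9 candidates from each of the 2 neutrophil lists, all of them higher in replicate 2. The member was Siglec1, a sialic acid-binding receptor of border macrophages. It had 958 counts and 182 counts, or 41.0 CPM and 4.42 CPM, and 56.7% GC over 6387 bases. The list of 10 border macrophage genes summed to 805 CPM in replicate 1 and 388 CPM in replicate 2. Within it Mrc1 had 190 CPM and 42.7 CPM, Cd163 48.5 CPM and 10.8 CPM, and F13a1 225 CPM and 64.7 CPM, whereas Lyve1 (52.1 CPM and 39.3 CPM), Pf4 (79.8 CPM and 64.5 CPM), Cbr2 (66.5 CPM and 56.8 CPM) and Ms4a7 (47.4 CPM and 59.0 CPM) differed less. Of the 10 genes 9 were lower in replicate 2, and Ms4a7 was higher. The log2 ratios of Siglec1, Cd163, Mrc1 and F13a1, the largest of the list, were 3.21, 2.17, 2.15 and 1.80, with transcripts of 3952 to 6387 bases against 588 to 3607 bases in the other six. After adjustment for GC content and length these 4 genes had log2 ratios of 1.31, 1.26, 1.55 and 1.39, and the median of the list was 0.61. The part of border macrophages in the members' ratios was not tested.

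None of the 11 microglia candidates was a member, and their median log2 ratio was -0.15. The neuron list stood at 3.12 CPM and 5.64 CPM and the pericyte or fibroblast list at 1.54 CPM and 0.948 CPM, without any candidate. Endothelial genes summed to 18.7 CPM and 16.1 CPM, astrocyte genes to 235 CPM and 193 CPM and oligodendrocyte genes to 236 CPM and 243 CPM. The neutrophil genes add to the total of replicate 2 and so lower the CPM of all its other genes. With the genes of both neutrophil lists left out of the totals, 101 of the members remained past 8-fold. In bulk samples, fewer cells of a type and less RNA per cell cannot be told apart.

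**Figure D4:**
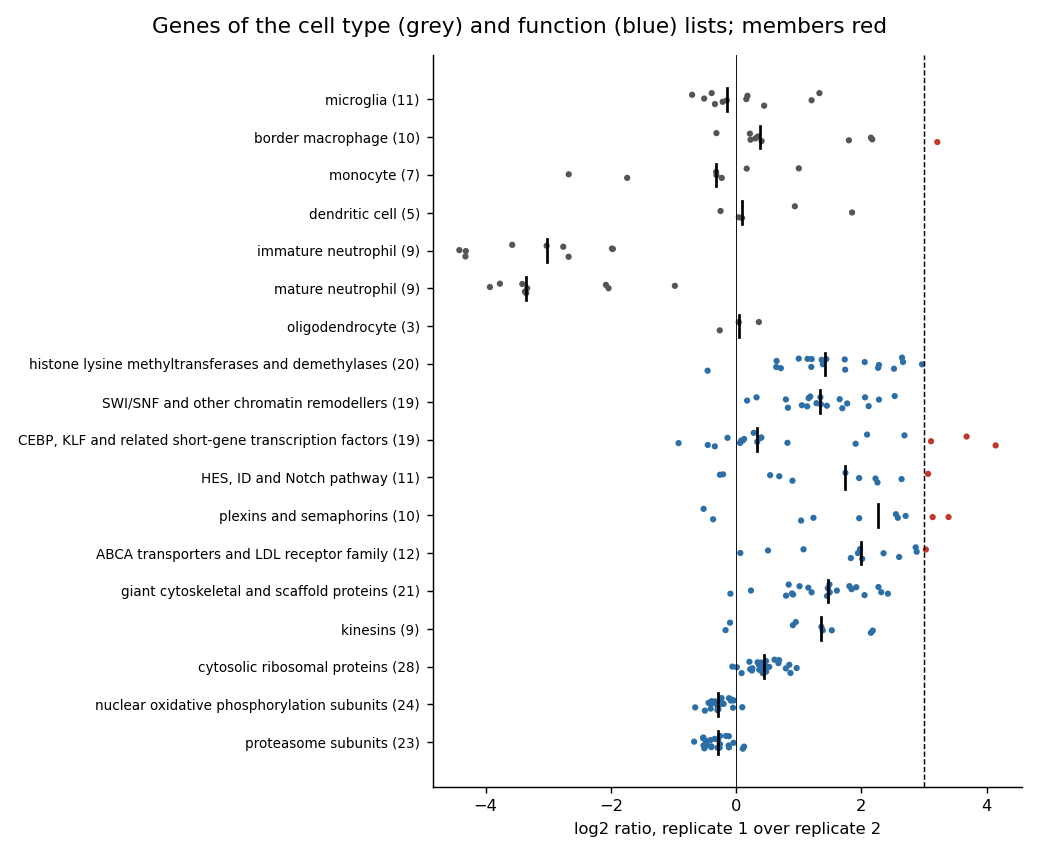
Log2 ratio of CPM in replicate 1 over replicate 2 for each candidate gene (points) of the cell type lists (grey) and function lists (blue) that hold at least 3 candidates (2 function lists are not drawn), with the list median as a vertical bar, members in red and a dashed line at the 8-fold threshold. Numbers in parentheses are candidates per list. Siglec1 is the only cell type marker beyond the line, and the neutrophil lists lie on the opposite side.

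The plot of lists also shows where the opposite change lay. With the same rule turned, at least 100 counts in replicate 2 and a level at least 8 times that in replicate 1, 141 of 10072 genes were chosen (1.40%). They included 26 marker list genes, 11 of them in the neutrophil lists. The largest ratios were those of Prss34 (0 and 4743 counts) and Mcpt8 (0 and 1484 counts), both from the list of basophil or mast cell genes. Their median GC content was 49.1% and their median length 1918 bases, against 57.2% and 4125 bases in the members. The members thus differed from the genes of the opposite change in base composition and in length. The marker lists, of 152 genes, were written with earlier results of these data known, so the count of 26 is a description. The share of list genes among all 10072 genes is not given here.

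Related genes gave a comparison within families. For 46 members, 72 related genes outside the set were candidates, from a list of relatives written after the members were seen. That their ratios are lower (median 1.20 against 3.37) follows from the choice. Their base composition was not used by it, but the relatives were chosen after their values were seen. In 36 of the 46 families the member had a higher GC content than the median of its relatives, by a median of 5.63 points over the 46. The richest window of the member was above the median of its relatives in 29 of the 46. The member was longer than that median in 14 of 46. Arf6 had 60.0% GC in 1534 bases, and Arf1 (12786 and 29904 counts) had 53.0% in 1991. Arf5 (2219 and 1532 counts), with 59.9% GC in 1116 bases, was close to Arf6 in base composition, and its log2 ratio was 1.35 against 4.56. Gsk3a had 59.8% GC and a log2 ratio of 4.33, and Gsk3b, longer at 8303 bases, 46.1% and 1.25 (2357 and 1738 counts). Jak3 stood at 61.0% and 3.01, and Jak1 at 47.6% and 1.44 (8676 and 5614 counts) and Jak2 at 44.3% and 0.83.

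The remaining 10 families went the other way. Rac1 had lower GC content than Rac2, yet its log2 ratio was 4.08 and that of Rac2 was -0.96 (11234 and 38438 counts). Ppp2ca (44.6% GC, log2 ratio 3.29) and Ppp2cb (54.3% GC, 0.08, 182 and 303 counts) formed such a pair too, as did Atp2a2 (48.2% GC, 3.22) and Atp2a3 (57.3% GC, 0.25, 607 and 896 counts). In both pairs the member was the longer transcript, at 7102 bases against 1469 and at 5674 bases against 4606. Among the families where the member had the higher GC content than the median, Cebpa (62.6% GC, log2 ratio 3.11) still had a relative above it, Cebpb with 67.2% GC in 1504 bases and a log2 ratio of 1.91 (179 and 84 counts).

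**Figure D5:**
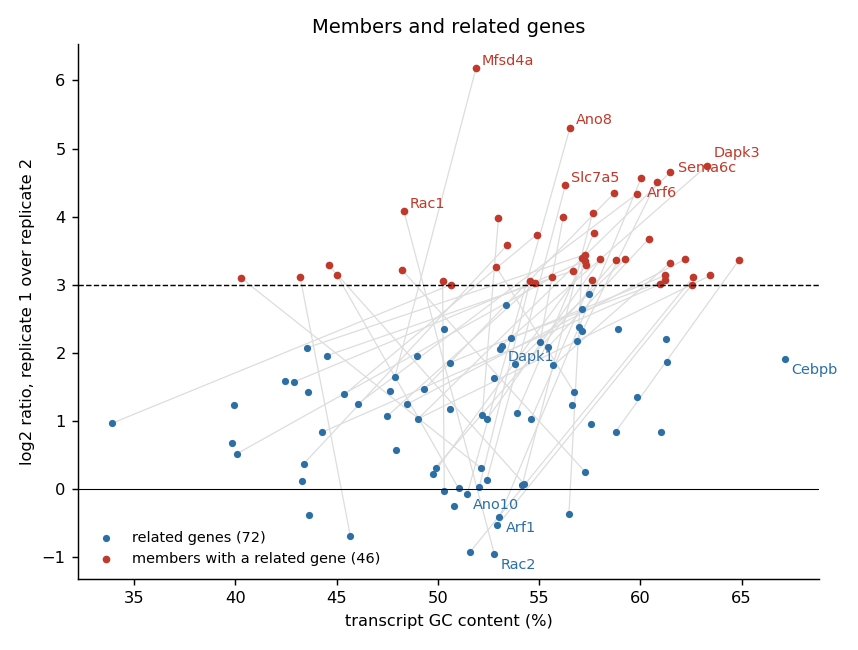
Log2 ratio of CPM in replicate 1 over replicate 2 against transcript GC content in percent for 46 members (red) and 72 related genes (blue), with a grey line from each member to the relative of lowest ratio and a dashed line at the 8-fold threshold. In 36 of the 46 families the member lies to the right of the median of its relatives, and Rac1 and Rac2 run the other way.

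The members were further spread over the genome and over gene structures. Chromosome 2 held 17 of them and chromosome 8 held 15, which is 13.7% and 12.1% of the members against 8.26% and 5.80% of the candidates. Of the 124 members 117 were protein-coding genes, and 77 overlapped another annotated gene (62.1% against 55.4%). In 15 the longest annotated transcript had 1 exon (12.1%, against 6.70% of candidates), among them Sox4 and Cebpa. These 15 also hold the 3 miRNA rows, and Mtch1, Snx20 and Tmem243, whose longest transcript has no annotated coding sequence. They are thus not all genes of a single exon. Whether the counting used the strand is not given in the sources used here, so reads of overlapping genes may be shared between them.

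GC content, transcript length and marker content are thus each given with their values beside the ratio, and their part in the low level of the members in replicate 2 was not tested. The choice of scaling bears on the number of members. With TMM library sizes, which lower every log2 ratio by 0.25 and so bring the candidates' median close to 0, 73 of the 124 remained past 8-fold, and with DESeq2 size factors 71. Of the 73, 4 were in the function lists and 0 in the cell type lists, so Siglec1 was below 8-fold there.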

How the data were processed

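RNA-seq of sorted microglia was available from 2 sham libraries. The authors used HISAT2 to map paired-end 75-bp reads to GRCm38 and HTSeq to count them, and deposited raw counts under Ensembl identifiers. Tool versions and the strand setting are not given in the sources used here. Starts were shifted to count from 1, and symbols, transcripts and biotypes came from GENCODE M21 (53620 of 53801 identifiers matched). Depth was 23381026 and 41142609 counts. GC content and length were read from each gene's longest transcript. That transcript had no annotated coding sequence in some protein-coding members, among them Ano8, Jak3, Mtch1, Snx20, Tspan33 and Tmem243. Coding and UTR values came from the transcript with the longest coding sequence. With that transcript used throughout, the members' median exceeded that of the candidates by 7.30 points of GC content and 925 bases. Bins with under 20 genes used the GC bin alone. Fold intervals are exact (Clopper-Pearson, 95%) and cover counting error only. No test was run, since the ratio chose the members. The adjustment was tested on simulated data. Named genes were the 10 largest ratios and 10 highest levels, the 3 at each side of the threshold, the 3 at each end of GC content and of length, the 5 largest adjusted ratios and all members in the lists. Some of the named genes and lists are not reported here. Relatives and genes named for contrast were chosen after their values were seen. The members and lists were chosen with earlier results of these data known. Alternatives were TMM (edgeR 4.0.16) and DESeq2 1.42.0 scaling, other totals, count minimums, zeros, folds, transcripts and bins. Python 3.11.15, pandas 2.3.3, scipy 1.17.1 and R 4.3.3 were used.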

Additional observations from a re-analysis of the deposited data

How the results depend on the processing

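The number of members moved from 124 to 73 with TMM library sizes, 71 with DESeq2 size factors, 317 with a minimum of 10 counts, 451 with no minimum other than 1 count, 765 at 4-fold and 18 at 16-fold. Their median log2 ratio moved from 3.35 to 3.47 with a minimum of 10 counts, 2.40 at 4-fold and 4.38 at 16-fold. Members exceeded candidates in median GC content by 7.79 points as reported, and by 4.79 with a minimum of 10 counts, 4.37 at 4-fold and 8.91 at 16-fold, so this direction held in all 9 alternatives tried. The excess in length, 709 bases, was 271 with TMM library sizes, 266 with DESeq2 size factors and 1327 at 4-fold, and turned to -286.5 at 16-fold. The turn at 16-fold is uncertain, since the 18 members there include Gm23935 and Gm24270, at 57 annotated bases each. The members with an adjusted log2 ratio of at least 3 were 53 instead of 33 with length bins alone, and between 24 and 49 otherwise. With TMM library sizes 0 instead of 1 member was in the cell type lists and 4 instead of 9 in the function lists, and 3.76% instead of 5.95% of the highest GC bin were members. The summed level was 844 CPM without replicate 1 and 9261 CPM without replicate 2. The TMM counts of lists and GC bins, the protein-coding genes alone and the bins by richest window or coding sequence were chosen after seeing the data. No paired analysis was possible because both libraries belong to 1 group. With 2 libraries of 1 group the depth limits single genes at few counts, and no value here separates animals from library preparation.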
